A study of Mus musculus with 10 samples.

Results

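The 10 genes described here encode chaperones and folding enzymes of the endoplasmic reticulum (ER), and they were taken by name from a deposited table of 22053 mouse genes. They are Hspa5, Hsp90b1, Calr, Canx, Pdia3, Pdia4, Pdia6, Dnajb9, Dnajc3 and Sdf2l1. All 10 were found, and all 10 passed the filter on low values that left 13117 genes for testing. RNA-seq had been run on 10 libraries of mouse glomeruli, the capillary tufts through which the kidney filters blood. One group of 5 came from mice with wild-type Col4a3. The other 5 came from mice with the missense variant p.G799R of Col4a3, a gene of the type IV collagen of the glomerular basement membrane. The sources used here do not give the zygosity, strain, sex or age of the mice, or whether a library is 1 mouse or a pool. What p-values measure is therefore only how far these libraries vary, and that variation may be technical. Tauroursodeoxycholic acid, a chemical chaperone, is in the title of the series, and samples treated with it were not analysed here. The variant lies in the coding sequence, so no mRNA level of Col4a3 could check the labels.

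Secreted and membrane proteins, collagen chains among them, fold in the ER. Hspa5 (BiP) is an Hsp70 chaperone that binds unfolded chains, with Dnajb9 and Dnajc3 as its J-domain partners and Sdf2l1 bound to it in a complex. Hsp90b1 (Grp94) is the Hsp90 of the ER. Calr and Canx are lectins, one soluble and one anchored in the membrane, that hold newly made glycoproteins together with the disulfide isomerase Pdia3. Pdia4 and Pdia6 are further disulfide isomerases. When unfolded protein builds up, the factors ATF6 and XBP1 raise many of these genes through a promoter motif named the ER stress element (ERSE), which the factor NF-Y binds at its other end.

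The promoters of these genes were searched for that motif because it is what the genes are known to share beyond their function. The motif searched was CCAAT, then 9 bases of any kind, then CCACG, on both strands, in RefSeq windows of the build GRCm38.p6 that reach from 250 bases before a gene's start to 50 bases after it. All 10 genes had a window. A whole match lay in 6 of the 10 windows, while 0.119% of all 32851 windows held one. The 7 matches are shown on the strand on which they read 5′ to 3′, with the fixed bases in capitals and the distance of the first base from the RefSeq start.

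Hspa5, same strand as the gene, first base at -65: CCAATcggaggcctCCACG
Hsp90b1, same strand as the gene, first base at −212: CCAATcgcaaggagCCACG
Hsp90b1, opposite strand as the gene, first base at -89: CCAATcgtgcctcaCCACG
Calr, opposite strand as the gene, first base at -144: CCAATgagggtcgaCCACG
Canx, same strand as the gene, first base at -145: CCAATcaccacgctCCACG
Pdia6, same strand as the gene, first base at -98: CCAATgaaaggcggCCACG
Dnajc3, same strand as the gene, first base at -105: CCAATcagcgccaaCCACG

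Hsp90b1 held 2 of the 7 matches, and 4 genes (Pdia3, Pdia4, Dnajb9 and Sdf2l1) held none. The first 5 bases, CCAAT, occurred in 10 of 10 windows, against 37.4% of all windows and 37.1% of windows of tested genes. The last 5, CCACG, occurred in 9 of 10, against 32.8% of all windows and 45.3% of windows of tested genes. Both of these short motifs also lie inside each whole match. The related second element (ATTGG, any 1 base, CCACG) and the XBP1 site TGACGTGG were in 0 of the 10 windows, against 0.0365% and 0.676% of all. A match describes letters and does not show that a factor binds there. No mismatch was allowed and bases outside the windows were not searched. A missing match thus does not show that a gene lacks the element.

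Whole windows are printed for 4 genes that span the responses reported below. Hsp90b1 and Sdf2l1 had the largest differences, with and without the motif. Hspa5 is the best known member, and Dnajc3 held the motif but did not pass the test. The fixed bases of whole matches are in capitals, and each line runs 5′ to 3′ on the gene's strand.

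Hspa5, chr2:34771840-34772139, plus strand: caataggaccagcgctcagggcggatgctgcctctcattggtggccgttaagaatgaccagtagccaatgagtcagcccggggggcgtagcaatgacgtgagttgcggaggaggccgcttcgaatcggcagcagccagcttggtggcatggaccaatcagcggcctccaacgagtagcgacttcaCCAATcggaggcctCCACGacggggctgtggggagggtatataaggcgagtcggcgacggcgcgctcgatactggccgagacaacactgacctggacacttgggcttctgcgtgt
Hsp90b1, chr10:86705395-86705694, minus strand: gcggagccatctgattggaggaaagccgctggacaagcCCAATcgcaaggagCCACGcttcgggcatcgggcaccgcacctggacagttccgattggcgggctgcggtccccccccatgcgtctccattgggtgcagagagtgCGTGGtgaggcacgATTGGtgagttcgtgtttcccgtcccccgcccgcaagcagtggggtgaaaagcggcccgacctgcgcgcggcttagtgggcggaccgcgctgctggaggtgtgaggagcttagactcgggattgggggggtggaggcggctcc
Dnajc3, chr14:118937682-118937981, plus strand: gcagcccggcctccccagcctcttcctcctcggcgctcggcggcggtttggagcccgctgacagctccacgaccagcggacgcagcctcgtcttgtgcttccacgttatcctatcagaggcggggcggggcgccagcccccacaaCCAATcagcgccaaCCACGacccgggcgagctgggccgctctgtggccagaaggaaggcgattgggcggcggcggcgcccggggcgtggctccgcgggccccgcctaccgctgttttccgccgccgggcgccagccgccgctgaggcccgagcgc
Sdf2l1, chr16:17132334-17132633, minus strand: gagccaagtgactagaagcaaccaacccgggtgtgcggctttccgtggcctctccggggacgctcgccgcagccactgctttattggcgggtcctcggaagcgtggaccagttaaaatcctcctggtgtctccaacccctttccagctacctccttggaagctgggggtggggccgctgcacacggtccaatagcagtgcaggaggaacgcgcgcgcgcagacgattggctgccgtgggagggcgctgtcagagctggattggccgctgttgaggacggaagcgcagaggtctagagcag

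**Figure D1:**
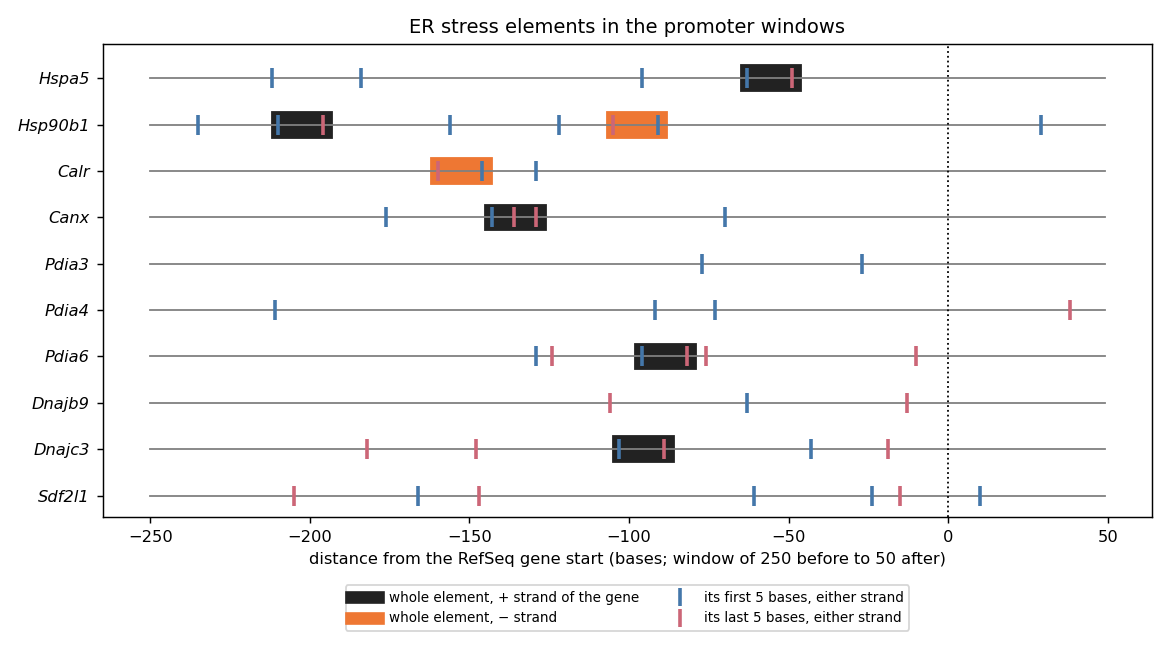
Map of the promoter windows of the 10 genes, with the distance in bases from the RefSeq gene start on the x axis and 1 line per gene. Boxes are whole ER stress elements, black on the gene's strand and orange on the other, and ticks are the first or last 5 bases of the element; 6 genes carry a box and Hsp90b1 carries 2.

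The table gives FPKM, the number of fragments scaled for transcript length and library total, so levels can be compared between genes. In wild-type glomeruli Hsp90b1 was highest at 261 ± 21.8 FPKM (SD, n = 5), followed by Calr at 256 ± 18.9 FPKM. Hspa5 stood at 215 ± 35.3 and Pdia3 at 188 ± 8.43 FPKM. Canx was at 124 ± 4.45, Pdia6 at 87.3 ± 7.94 and Pdia4 at 62.1 ± 5.87 FPKM. The J-domain genes Dnajc3 and Dnajb9 were at 31.8 ± 1.47 and 26.2 ± 4.45 FPKM, and Sdf2l1 was lowest at 6.74 ± 1.3 FPKM. In this order Hsp90b1 was above Calr, Hspa5 above Pdia3 and Dnajc3 above Dnajb9 in only 4 of 5 wild-type libraries, and every other step held in 5 of 5. The order of the 10 means was the same in G799R. As a share of all FPKM the 10 genes together made up 0.387% ± 0.0288 of wild-type libraries (SD, n = 5), and 0.529% ± 0.0842 of G799R libraries (SD, n = 5). The highest wild-type library, at 0.426%, lay just above the lowest G799R library, at 0.42%.

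In FPKM as deposited, 8 of the 10 genes were higher in G799R and 0 were lower. Among all 13117 tested genes 40.5% were called higher and 19.3% lower, so a call in itself was common. The median log2 difference of the 10 was 0.46, and that of all tested genes 0.17. The increases ran from 1.16-fold for Canx to 1.93-fold for Sdf2l1. Dnajb9 and Dnajc3 were the 2 genes without a call. The groups did not overlap for 3 of the 10 (Hsp90b1, Pdia3 and Pdia4), against 26.1% of all tested genes whose lowest G799R value exceeded the highest wild-type value. Differences were tested with limma on log2(FPKM + 1), adjusted over all tested genes, and are given as G799R minus wild type with the standard error.

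The same G799R libraries held much less RNA of tubule markers, and in bulk tissue fewer cells of a type and less RNA per cell cannot be told apart. All 20 proximal tubule markers and 15 of 16 markers of the later tubule fell. Their mean log2(FPKM + 1), called the tubule score, fell from 6.70 ± 0.27 to 4.24 ± 0.43 (SD, n = 5 and 5; exact two-sided permutation p = 0.0079, the smallest that 5 against 5 allow). Of markers of the glomerulus, 20 of 20 podocyte, 16 of 20 endothelial and 13 of 18 mesangial and smooth muscle genes rose, with 0 lower. The podocyte surface gene Podxl averaged 1301 FPKM in wild type and 2221 in G799R, and the proximal tubule gene Kap 4449 and 1021 FPKM. Defining markers of glomerulus and tubule were thus present in every library. All 24 interferon response genes rose, and the mean over the list, the interferon score, ran from 4.65 to 7.44 in G799R libraries and from 2.79 to 3.74 in wild type. Macrophage markers rose in 10 of 16 cases. These counts stand beside 40.5% higher and 19.3% lower among all tested genes. The part of these shifts in the chaperone differences was not tested beyond the rescaled values given below.

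Plasma cells are rich in ER chaperones, so their markers were checked as well. Of 11 genes 7 passed the filter. Of these, 2 were called higher (Sdc1 and Ighg1) and 0 lower, against 40.5% and 19.3% of all tested genes. Sdc1, a surface proteoglycan that epithelial cells also carry, read 10.6 to 18.0 FPKM in wild type and 16.0 to 22.3 FPKM in G799R (0.53 ± 0.14, limma adjusted p = 0.0070). The antibody gene Ighg1 averaged 0.133 FPKM in wild type and 1.28 FPKM in G799R (0.87 ± 0.29, limma adjusted p = 0.0238). Summed over the list, they reached 57.0 to 81.6 FPKM in wild type and 40.3 to 92.0 FPKM in G799R, ranges that overlap. The most abundant of the list, the antibody genes Igkc and Igha, were without a call, at 25.0 and 17.0 FPKM in wild type and 19.8 and 12.1 FPKM in G799R (limma adjusted p = 0.18 and 0.12). Tnfrsf17, a receptor of plasma cells, was listed at 0 in 4 wild-type and 3 G799R libraries, and no gene of the list was at 0 in all 10. The list score differed by 0.08 (exact two-sided permutation p = 0.60).

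The central chaperone Hspa5 (ENSMUSG00000026864) lies on chromosome 2 at 34771970 to 34777547 in the GRCm38 annotation GENCODE M21, which may not be the authors' build. It read 222, 169, 190.2, 237 and 256 FPKM in wild-type libraries 1 to 5, and 219.7, 293, 256, 468 and 346 FPKM in G799R libraries 1 to 5. G799R libraries 4 and 5 were far above the rest, library 1 lay inside the wild-type range, and library 3 barely exceeded it (256.2 against 255.97 FPKM). The means differed 1.47-fold, with a log2 difference of 0.52 ± 0.19 (limma adjusted p = 0.0324). The call was lost when any 1 of 5 libraries was left out (wild-type 2 or 3, G799R 2, 4 or 5; log2 differences 0.37 to 0.54, adjusted p 0.0501 to 0.0801).

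Its partners split. Sdf2l1 (ENSMUSG00000022769), the lowest of the 10, read 7.18, 4.90, 7.58, 5.96 and 8.11 FPKM in wild type and 6.42, 11.1, 13.3, 19.2 and 14.9 FPKM in G799R. Every G799R library but library 1 was above the whole wild-type group. The gene was 1.93-fold higher (0.80 ± 0.23, limma adjusted p = 0.0116), and without G799R libraries 3 and 4 the difference was 0.56 with adjusted p = 0.0689.

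Dnajb9 (ENSMUSG00000014905), which helps to turn over misfolded proteins, read 32.7, 21.4, 23.3, 25.3 and 28.3 FPKM in wild type. In G799R it read 29.8, 25.5, 22.2, 36.2 and 33.6 FPKM. The groups overlapped widely (0.16 ± 0.14, limma adjusted p = 0.36). Dnajc3 (ENSMUSG00000022136), also known as a restraint on the stress kinase PERK, was the steadiest of the 10. It read 31.5, 29.5, 33.1, 31.8 and 32.9 FPKM in wild type and 30.9, 29.9, 31.9, 37.1 and 32.9 FPKM in G799R. Only G799R library 4 lay above the wild-type range, and the difference was 0.03 ± 0.07 (limma adjusted p = 0.69).

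Hsp90b1 (ENSMUSG00000020048, chromosome 10 at 86690209 to 86705509) showed the clearest separation. It read 273, 229.6, 272, 249 and 283 FPKM in wild type and 334, 403, 517, 543 and 408 FPKM in G799R. Every G799R library was above all wild-type libraries, with the lowest, library 1, at 334 against 283 FPKM. Libraries 3 and 4 were the highest. The gene was 1.69-fold higher (0.73 ± 0.13, limma adjusted p = 6.4e-04), and no single library decided the call (adjusted p at most 0.0024 with any 1 left out).

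Of the pair of lectin chaperones, Calr (ENSMUSG00000003814) read 259, 229, 254, 257 and 282 FPKM in wild type and 259, 339, 346, 419 and 363 FPKM in G799R. Library 1 of G799R sat at the wild-type level and the other 4 were above all wild-type libraries. The gene was 1.35-fold higher (0.42 ± 0.12, limma adjusted p = 0.0095). Canx (ENSMUSG00000020368) moved least among the called genes. It read 122, 119, 128, 121 and 128 FPKM in wild type and 123, 143, 147, 164 and 137 FPKM in G799R. Again library 1 stayed within the wild-type range, and the difference was 0.20 ± 0.08 (limma adjusted p = 0.0383). This call was lost in 7 of the 10 fits that left out 1 library (0.15 to 0.21 in these 7, adjusted p up to 0.0912).

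The disulfide isomerases of the set were all higher as deposited. Pdia3 (ENSMUSG00000027248) read 190.5, 174, 190.1, 187 and 197 FPKM in wild type and 207, 237, 259, 273 and 231 FPKM in G799R, with no overlap (0.36 ± 0.08, limma adjusted p = 0.0030). Pdia4 (ENSMUSG00000025823) read 59.6, 55.0, 61.7, 62.9 and 71.1 FPKM in wild type and 76.3, 86.0, 85.1, 108 and 88.2 FPKM in G799R. These groups were also apart (0.50 ± 0.10, limma adjusted p = 9.8e-04). Pdia6 (ENSMUSG00000020571) read 89.5, 76.3, 91.6, 82.7 and 96.6 FPKM in wild type and 93.7, 131, 124, 167 and 132 FPKM in G799R. Library 1 of G799R fell below the highest wild-type library, and the mean was 1.48-fold higher (0.55 ± 0.13, limma adjusted p = 0.0040).

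**Figure D2:**
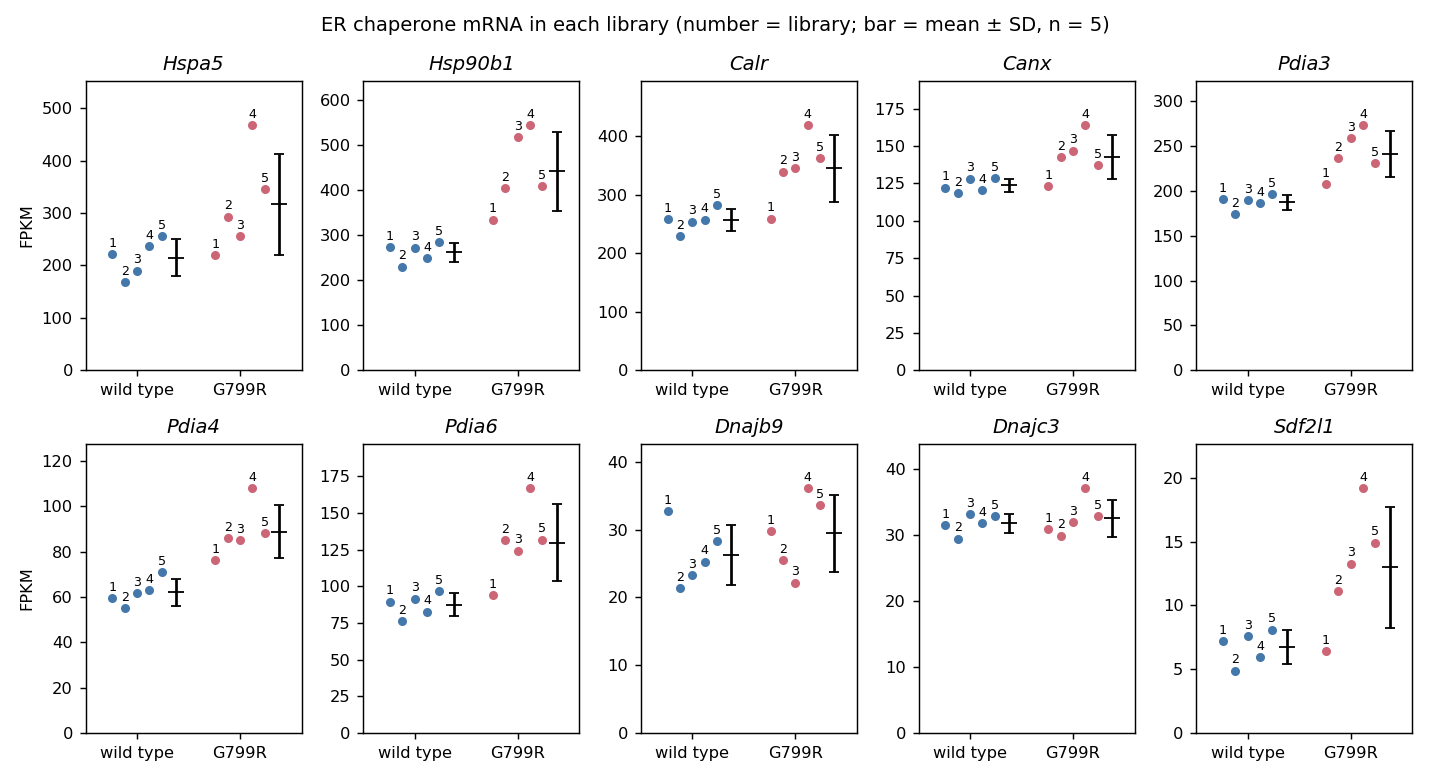
FPKM of each gene (y axis, from 0) in the 5 wild-type (blue) and 5 G799R (red) libraries, numbered by library, with the mean ± SD as a black bar. G799R library 4 is the highest of its group in all 10 panels, and library 1 lies within the wild-type range in 7 of them.

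The presence of a whole match in the window did not sort the genes by their difference. The 6 genes with a whole element ranged from 0.03 (Dnajc3) to 0.73 (Hsp90b1), and the 4 without one from 0.16 (Dnajb9) to 0.80 (Sdf2l1). Outside the 10, 12 tested genes had a whole element in a window. Of these 6 were called higher and 1 lower, with a median log2 difference of 0.28, beside 40.5% and 19.3% of all tested genes and their median of 0.17. Under median-of-ratios scaling, described below, 4 of the 12 were higher and 1 lower, against 23.3% and 25.5% of all tested genes. Quantile normalisation gave 6 higher and 1 lower, against 35.5% and 20.8%. Under glomerular marker scaling 1 of the 12 was higher and 5 lower, against 4.31% and 62.8% of all tested genes. Among the 12 were Syvn1, an ubiquitin ligase of the ER (0.32 ± 0.09, limma adjusted p = 0.0119) and Acnat2, which fell by 2.76 on the log2 scale as deposited. These last 2 were chosen after their values were seen.

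How the libraries are scaled moved all of these differences, and 1 scaling turned the sign of 8 of the 10. Under median-of-ratios scaling, which sets the typical gene equal, 4 of the 10 were higher (Hsp90b1, Pdia4, Pdia6 and Sdf2l1) and 0 lower, against 23.3% and 25.5% of all tested genes. The median of the 10 was then 0.28 and that of all genes 0.02. Quantile normalisation left 6 of the 10 higher and 0 lower, against 35.5% and 20.8% of all tested genes. Under glomerular marker scaling, which sets the mean of podocyte, endothelial and mesangial markers equal in every library, 0 were higher and 4 lower (Canx, Pdia3, Dnajb9 and Dnajc3), while 62.8% of all tested genes were lower and 4.31% higher. The median of the 10 was −0.20 and that of all genes −0.40. Hsp90b1 and Sdf2l1 were the 2 genes that kept a positive value there, at 0.07 ± 0.13 and 0.20 ± 0.21, neither with a call (limma adjusted p = 0.65 and 0.41). With the tubule score as a covariate, 0 of the 10 and 0% of all tested genes passed in either direction, with group ranges of that score that did not overlap. Without G799R libraries 3 and 4, those with the highest interferon scores, 4 of the 10 were higher (Hsp90b1, Pdia3, Pdia4 and Pdia6) and 0 lower, against 37.1% and 17.2% of all tested genes. Under glomerular marker scaling Dnajc3 was the furthest below, at −0.61 ± 0.11 (limma adjusted p = 4.8e-04).

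**Figure D3:**
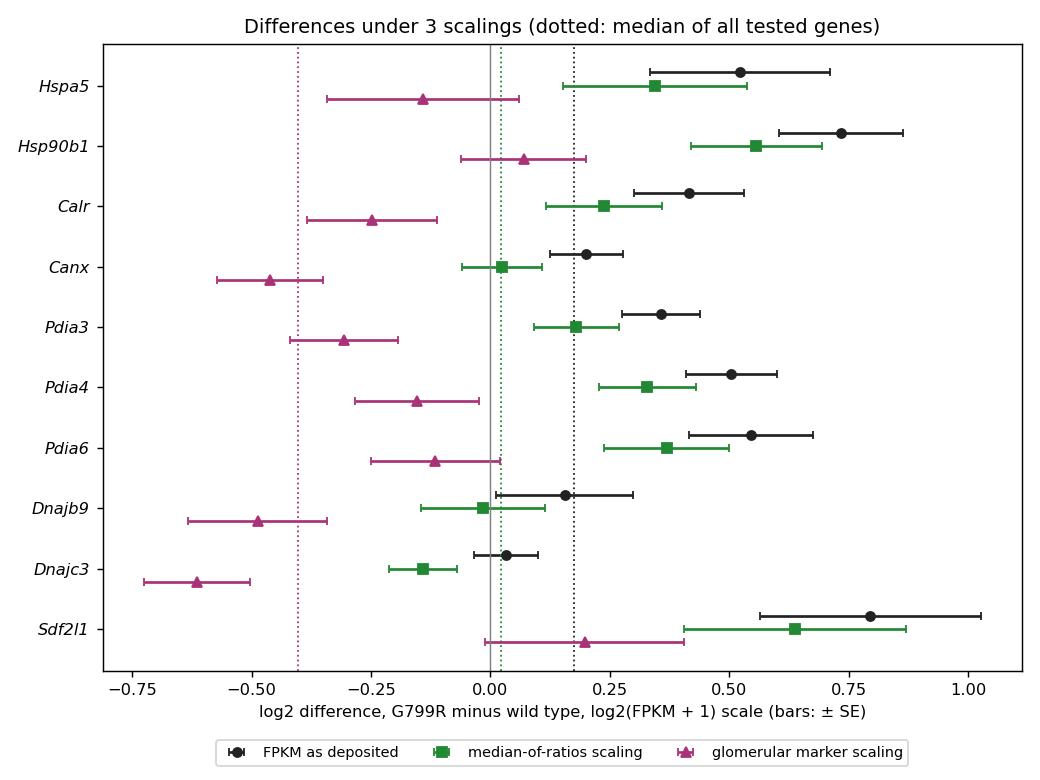
Log2 difference of each gene (x axis, G799R minus wild type, bars ± SE) under FPKM as deposited, median-of-ratios scaling and glomerular marker scaling, with the median of all tested genes as a dotted line of the same colour. Sdf2l1 and Hsp90b1 are the furthest right and Dnajc3 the furthest left under each scaling, while the whole set shifts from a median of 0.46 as deposited to −0.20 under glomerular marker scaling.

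A ratio of 2 genes in the same library does not depend on that scaling, so the other 9 genes were also expressed relative to Canx. It can still change with the mix of cell types, and that part was not tested. The same model was fitted to all genes after subtracting the log2(FPKM + 1) value of Canx. Hsp90b1, Sdf2l1, Pdia6 and Pdia4 rose relative to Canx, which is 4 of 9, against 13.1% of all tested genes higher and 23.4% lower. The ratio of Hsp90b1 to Canx was 1.93 to 2.23 in wild-type and 2.71 to 3.52 in G799R libraries, with no overlap (0.53 ± 0.10, limma adjusted p = 8.9e-04). The ratio of Pdia4 was 0.463 to 0.553 against 0.579 to 0.659, also apart (0.30 ± 0.08, adjusted p = 0.0115 by limma). Pdia6 had ratios of 0.642 to 0.752 against 0.76 to 1.02 (0.34 ± 0.10, limma adjusted p = 0.0126). Sdf2l1 had 0.0412 to 0.0631 against 0.0520 to 0.117, with G799R library 1 inside the wild-type range (0.59 ± 0.18, limma adjusted p = 0.0187). Without wild-type library 2 this last adjusted p was 0.0528. With 0.1 instead of 1 added to FPKM, the difference of Sdf2l1 relative to Canx was 0.67.

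Hspa5 itself was 1.42 to 1.99 times Canx in wild type and 1.74 to 2.85 times in G799R. The ranges overlapped (0.32 ± 0.15, limma adjusted p = 0.12). Calr and Pdia3 differed by 0.21 ± 0.10 and 0.16 ± 0.08 relative to Canx, without a call (limma adjusted p = 0.098 and 0.15). The ratios of Pdia3 nevertheless did not overlap, at 1.46 to 1.56 in wild type and 1.66 to 1.76 in G799R. Dnajb9 stood at −0.05 ± 0.15. Dnajc3 stood at −0.17 ± 0.08 (limma adjusted p = 0.13), with ratios of 0.248 to 0.263 in wild type and 0.210 to 0.251 in G799R. Without G799R library 1, Calr and Dnajc3 passed the threshold as well, at 0.26 and −0.20 (limma adjusted p = 0.0335 and 0.0481). Beside Canx, the genes that passed were thus an Hsp90, a pair of disulfide isomerases and a partner of BiP.

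**Figure D4:**
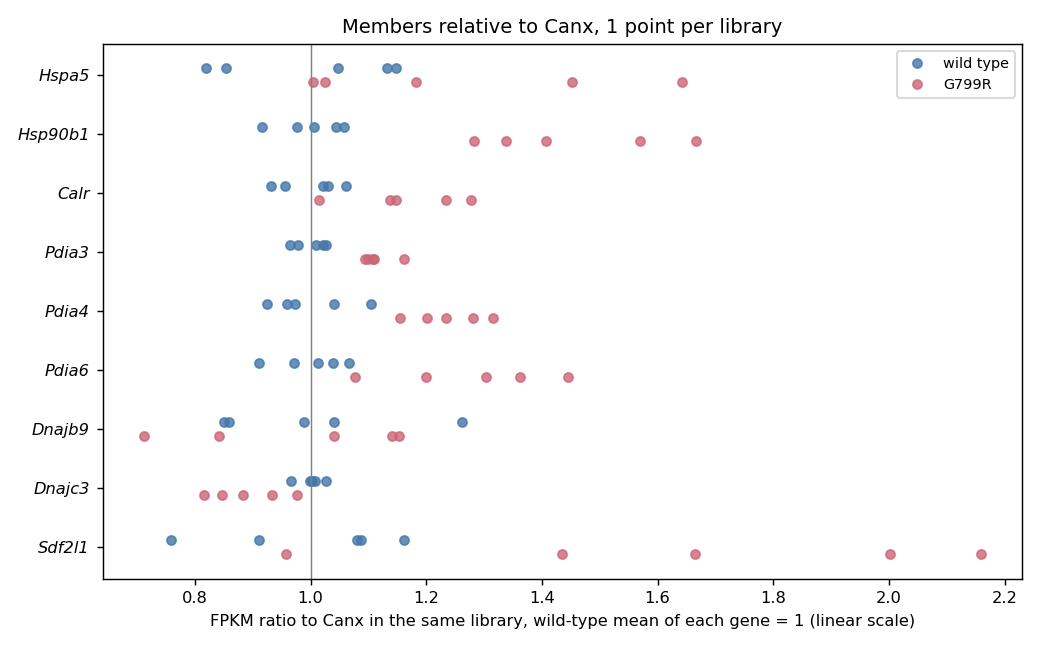
FPKM ratio of each gene to Canx in the same library (x axis, linear, with the wild-type mean of each gene set to 1), 1 point per library, wild type in blue and G799R in red. All 5 red points of Hsp90b1, Pdia3, Pdia4 and Pdia6 lie to the right of the blue ones, and those of Dnajb9 do not.

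Libraries of a group differed from one another along the whole set. G799R library 4 was the highest of its group for 10 of 10 genes, while it was the highest for 16.0% of all tested genes. G799R library 1 was the lowest for 8 of 10, against 15.8% of tested genes. It lay inside the wild-type range for 7 of the 10, against 27.3% of tested genes. In wild type, library 5 was the highest for 8 of 10 and library 2 the lowest for 10 of 10, against 16.9% and 18.0% of tested genes. G799R library 4 also had the lowest tubule score of its group, at 3.72. In wild type the highest tubule score, 6.96, was that of library 4, which was never the highest or lowest for any of the 10.

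Within-group co-variation was measured on deviations of log2(FPKM + 1) from the group means over the 10 libraries, since 5 libraries a group are too few for a correlation of their own. Over the 45 pairs of these genes Pearson's r ran from 0.16 to 0.98 with a median of 0.84, and 35 pairs were over 0.7. The closest pair was Hsp90b1 and Pdia3 (r = 0.98), followed by Calr with Sdf2l1 and with Pdia6 (both r = 0.97). Dnajb9 stood furthest from the rest, with r = 0.16 to Hsp90b1 and to Canx, and was nearest to Hspa5 at 0.68. All pairs share the same 10 libraries and their scaling. The median r of Hspa5 with all other tested genes was −0.02, and 1.67% of these were over 0.7.

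Pdia4 and Calr followed Hspa5 most closely among the other 9 genes. Pdia4 ranked 5 of 13116 tested genes (r = 0.92, rho = 0.90; permutation p = 4.2e-04 and 0.0019, exact, within groups), and Calr ranked 9 (r = 0.90, rho = 0.87; exact permutation p = 0.0023 and 0.0040). Pdia6 ranked 20 and Sdf2l1 57 (r = 0.87 and 0.82), and Hsp90b1 ranked 439 (r = 0.63, rho = 0.60; exact permutation p = 0.12 and 0.12). The exact permutation p was under 0.05 for 5 of the 9, against 4.14% of all tested genes. After adjustment over all tested genes 0 of the 9, and 0 of 13116, passed (smallest adjusted permutation p of the 9, 0.61). The smallest p that the 14400 orders within groups can give is 6.9e-05. G799R libraries 1 and 4 lay furthest from the median of Hspa5. Without them r was 0.86 for Calr, 0.78 for Pdia4 and 0.80 for Dnajb9, but 0.16 for Pdia3, 0.02 for Hsp90b1 and −0.03 for Canx, so these last 3 relations rest on those libraries.

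The 10 genes outside the set most like Hspa5 by Pearson's r over the 10 libraries held 4 further folding genes of the ER. These were Creld2 (r = 0.96), a folding factor induced by ER stress, the collagen chaperone gene Serpinh1 (0.94), Dnajb11 (0.91), a J-domain partner of BiP, and Ppib (0.89), a prolyl isomerase. The other 6 were Gprasp1, Paqr6, Tmco1, Fam207a, Zfp691 and Col6a2 (r = 0.89 to 0.95). Serpinh1 read 92.8, 70.2, 78.9, 99.3 and 99.4 FPKM in wild type and 81.0, 119, 81.5, 150.1 and 110.5 FPKM in G799R. Its groups overlapped (0.27 ± 0.17, limma adjusted p = 0.19). Creld2 overlapped too (0.27 ± 0.16, limma adjusted p = 0.16), and its promoter window was 1 of 2 on the list of other ER folding genes that held the whole motif.

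**Figure D5:**
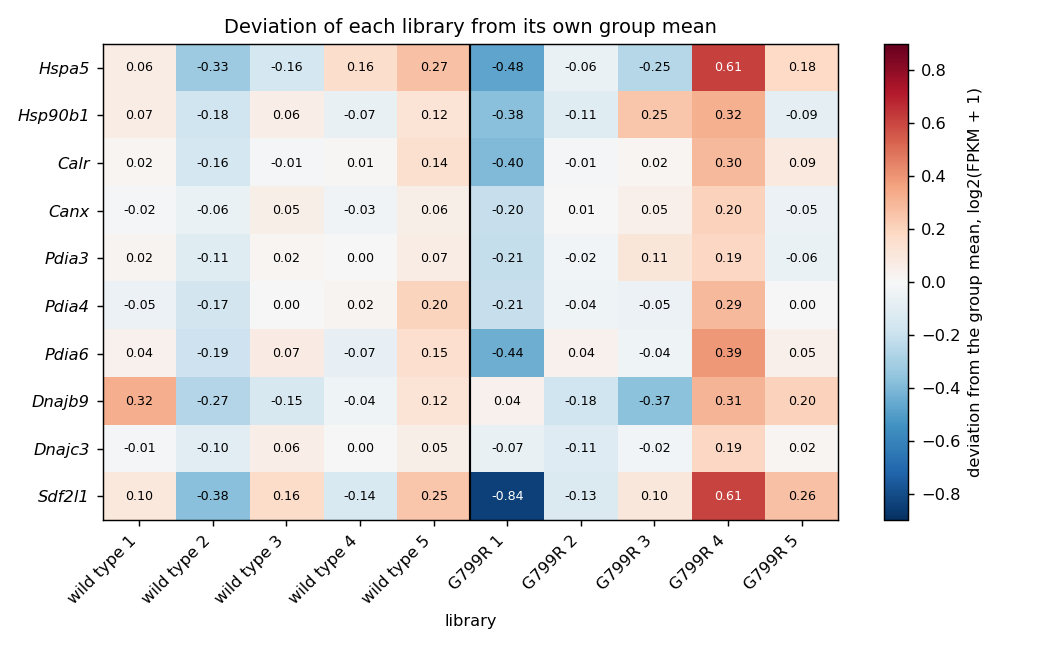
Deviation of each gene (rows) in each library (columns) from its own group mean, in log2(FPKM + 1), red for above and blue for below. The column of G799R library 4 is above the mean in every row and that of wild-type library 2 below it, while G799R library 3 is above for Hsp90b1 and Pdia3 and below for Hspa5 and Dnajb9.

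G799R library 3 divided the set. Its deviation was 0.25 for Hsp90b1 and 0.11 for Pdia3, but −0.25 for Hspa5 and −0.37 for Dnajb9. The same library had the highest interferon score, 7.44. After these values were seen, each gene was correlated within groups with that score. Hsp90b1 and Pdia3 had r = 0.81 and 0.79 (rho = 0.92 and 0.95; exact permutation p for r = 0.0434 and 0.0454), Canx had 0.68 (rho = 0.82), Hspa5 had 0.26 and Dnajb9 had −0.14. The unadjusted p was thus under 0.05 for 2 of 10 genes, against 6.09% of all tested genes, and these are the 2 whose values prompted the test. Adjusted over all tested genes, 0 passed (adjusted permutation p = 0.80 for Hsp90b1). With G799R libraries 3 and 5 left out, the 2 farthest from the median score, all 10 genes had r from 0.69 to 0.96. The division thus rests on these libraries, and it was in library 3 that it had been seen. No p-value and no share of all tested genes was computed for these r. Whether they are particular to the 10 genes was not tested. Against the tubule score all 10 had negative r, from −0.73 to −0.48, while the median over all tested genes was −0.09. The permutation p was under 0.05 for 1 gene, Sdf2l1 (exact, p = 0.035), against 15.7% of all tested genes. Leaving out G799R library 4 and wild-type library 1, the 2 farthest from the median of the tubule score, gave weaker r. They ran from −0.66 (Sdf2l1) to −0.17 (Pdia3). Against the glomerular score all 10 had positive r, from 0.09 (Hspa5) to 0.44 (Hsp90b1), while the median over all tested genes was 0.20. Its permutation p was under 0.05 for 1 gene, Hsp90b1 (exact, p = 0.0381), against 18.7% of all tested genes, and 0 genes passed after adjustment. Without wild-type libraries 1 and 4, the 2 farthest from the median of that score, r ran from 0.06 (Dnajb9) to 0.77 (Hsp90b1).

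Beyond the 10, the wider folding machinery of the ER was mostly higher or without a call. As deposited, 40.5% of all tested genes were higher and 19.3% lower. Of 40 other folding genes on a separate list, 20 were higher and 1 lower, with a median log2 difference of 0.27. The smallest p-values were those of the prolyl isomerase gene Fkbp7 (1.74-fold), the thioredoxin family gene Txndc12 (1.42-fold), Calu, which encodes a calcium-binding protein (1.59-fold), and Cnpy3, a helper of Hsp90b1 (1.46-fold). For these 4 the log2 differences were 0.76, 0.48, 0.67 and 0.52 and the limma adjusted p-values 9.4e-06, 3.5e-05, 3.5e-05 and 1.9e-04. All 4 had groups that did not overlap, and all 4 had r with Hspa5 of 0.08 to 0.23. Fkbp11 was the gene called lower (−0.35 ± 0.14, limma adjusted p = 0.0418). P4hb, the most abundant folding gene of that list, stood at 196 ± 9.65 and 206 ± 6.33 FPKM (0.08 ± 0.06, limma adjusted p = 0.29); it was chosen after its values were seen. Under glomerular marker scaling 0 of the 40 were higher and 22 lower, against 4.31% and 62.8% of all tested genes.

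Of the 3 receptors that return chaperones with a KDEL tail to the ER, 1 passed the test. Among all tested genes 40.5% were called higher and 19.3% lower. Kdelr2 read 34.5 to 39.6 FPKM in wild type and 43.4 to 48.5 FPKM in G799R, without overlap (0.28 ± 0.06, limma adjusted p = 0.0018). Kdelr1 was at 54.4 ± 2.17 and 57.7 ± 3.06 FPKM (limma adjusted p = 0.23). Kdelr3, at 0.409 and 0.894 FPKM, just missed the threshold (limma adjusted p = 0.0509).

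Sensors and factors of the unfolded protein response, the signalling system that controls these chaperones, gave a mixed picture. Of 17 tested genes 11 were called higher and 1 lower as deposited (median log2 difference 0.31), beside 40.5% and 19.3% of all tested genes and their median of 0.17. Quantile normalisation gave 11 higher and 2 lower, against 35.5% and 20.8% of all tested genes. Median-of-ratios scaling gave 3 higher and 2 lower, against 23.3% and 25.5% of all tested genes. Glomerular marker scaling gave 0 higher and 12 lower, against 4.31% and 62.8% of all tested genes. The directions given next are those of FPKM as deposited, and single genes of this list were not followed under the other scalings. Among the sensors, Atf6 rose (0.28 ± 0.07, limma adjusted p = 0.0049), with 12.9 to 16.1 FPKM in wild type and 16.9 to 19.1 in G799R. The other 2 sensor genes, Ern1 (IRE1) and Eif2ak3 (PERK), were at 0.16 ± 0.08 and 0.02 ± 0.06 without a call. Xbp1 was at 69.7, 60.6, 63.1, 76.7 and 81.1 FPKM in wild type and 84.7, 109.6, 69.6, 105 and 114 FPKM in G799R (0.44 ± 0.14, limma adjusted p = 0.0168). G799R library 3 was the only one of its group inside the wild-type range. Ddit3 rose by 0.38 and Atf4 stood at 0.11 ± 0.07 (limma adjusted p = 0.0045 and 0.21). Herpud1, a degradation factor that is also induced by ER stress, went the other way, from 80.1 to 122 FPKM in wild type to 36.0 to 64.7 FPKM in G799R (−0.93 ± 0.15, limma adjusted p = 3.2e-04).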

How the data were processed

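The authors deposited 1 table of FPKM values, a unit named in its column headers. The submitters' processing notes list RSEM, HISAT2, StringTie (1.3.1), Bowtie2 (2.2.8) and fastp (0.18.0) without a role or an order, and the build and the annotation were not stated. Columns were matched to libraries by name, and 21963 of 22053 identifiers had a symbol. Library sums of FPKM ran from 320720 to 340875. Absolute depth is unknown. Relative to wild-type library 1, depth was 0.861 to 1.19, with means of 1.09 for wild type and 0.927 for G799R, as read from the commonest ratio of low values (below 0.3 FPKM).

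Values were used as log2(FPKM + 1), which understates changes of low genes. A filter kept the 13117 genes averaging 0.5 FPKM or more. Two-sided tests used limma-trend from limma 3.58.1 in R 4.3.3, adjusted by Benjamini-Hochberg, at a threshold of 0.05. Folds are ratios of mean FPKM. Correlations used deviations from group means, with exact permutations within groups. Scripts were tested on simulated data.

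The 10 genes and the lists were chosen with earlier results of these data known. The rule for named genes took all 10 members, up to 4 other folding genes with the smallest p in each direction, the KDEL receptors, 7 stress response genes, the 10 genes most like Hspa5 and the 2 most abundant markers of each list, not all of which are printed. No library was a copy of another: any 2 shared identical values in at most 0.168% of tested genes. Alternatives covered pseudocounts, filters, scalings, array weights, a replicate block, a tubule covariate and libraries left out. Correlations with the interferon, tubule and glomerular scores were added after the values were seen, as were counts of the stress response and motif genes under other scalings.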

Additional observations from a re-analysis of the deposited data

Results flagged for a closer look

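Of 80 groups of 5 libraries, from 40 genes and marker scores, 2 held a library that stood apart by Dixon's criterion; chance flags about 1 in 20 groups. Eif2ak3, the gene of the stress kinase PERK, reached 11.2 FPKM in G799R library 5, while the rest of that group read 9.59 to 9.87 FPKM. Zfp691, among the genes most like Hspa5, was low in wild-type library 2 with 1.95 FPKM, while the rest of that group read 2.53 to 2.76 FPKM. Neither is a member of the chaperone set.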

How the results depend on the processing

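Of 220 differences of the 10 genes under alternatives, 170 kept direction and call, 27 kept direction and lost the call, 0 gained one and 23 changed direction. The cause of the changes was not tested. Pseudocounts of 0.1 and 0.5, a filter of 2 FPKM, no trend and array weights changed no call of the 10; with array weights 2 other folding genes were lower. Without a filter 6 of the 10 were higher (22.5% of all 22053 genes higher, 12.1% lower), and 0 other folding genes lower.

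Median-of-ratios scaling left 4 of the 10 higher and put 6 other folding genes lower, against 23.3% higher and 25.5% lower of all tested genes. It turned Dnajb9 to −0.016 and Dnajc3 to −0.14. Quantile normalisation left 6 of the 10 higher and turned Dnajc3 to −0.072. Glomerular marker scaling gave 0 higher and 4 lower (0 and 22 of the other folding genes, and 4.31% and 62.8% of all tested genes). It turned Hspa5 to −0.14, Calr to −0.25, Canx to −0.46, Pdia3 to −0.31, Pdia4 to −0.15, Pdia6 to −0.12, Dnajb9 to −0.49 and Dnajc3 to −0.61. With the tubule score as a covariate 0 of all tested genes were called, so 0 of the 10 and 0 other folding genes in either direction, and the median standard error of the 10 went from 0.12 to 0.40. Values were −0.997 for Hspa5, −0.050 for Hsp90b1, −0.45 for Calr, −0.20 for Canx, −0.037 for Pdia3, −0.019 for Pdia4, −0.52 for Pdia6, −1.03 for Dnajb9, −0.37 for Dnajc3 and −1.33 for Sdf2l1.

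With 1 library left out, 6 to 8 of the 10 were higher (35.2% to 42.5% of all tested genes), and 19 to 22 other folding genes higher and 0 to 2 lower. Dnajc3 ranged from −0.015 (without G799R library 4) to 0.061, and Dnajb9 relative to Canx from −0.11 to 0.059, above 0 without wild-type library 1 or G799R library 2 or 3 (0.039, 0.00079 and 0.059). Relative to Canx 3 to 6 of 9 genes were higher or lower. The 6, found without G799R library 1, included Dnajc3 as lower (−0.20). The share of all tested genes was not counted in these fits, and with all libraries it was 13.1% higher and 23.4% lower. Without G799R libraries 3 and 4, 4 of the 10 were higher, 0 other folding genes lower, and Dnajc3 was at −0.022. Without G799R libraries 1 and 4 the correlation of Canx with Hspa5 was −0.035.

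Replicate numbers do not pair the libraries (correlations of same-numbered deviations −0.08 to 0.05, and 0 libraries nearest to their own number). With a replicate block 7 of the 10 were higher, against 37.6% of all tested genes, Canx having lost its call (limma adjusted p = 0.0697). Relative to Canx 4 of 9 were then higher, and the share of all tested genes was not counted for that fit. Unknown depth allows no counting error, which matters most for Sdf2l1 and Kdelr3.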
